A study of Homo sapiens with 18 samples.

Results

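Axon guidance ligands and receptors are the 68 protein-coding genes of the semaphorin, plexin, neuropilin, ephrin, Eph, SLIT, ROBO, netrin and UNC5 families among the 61544 genes, 19988 of them protein-coding, that the count tables list. They were chosen by gene symbol and gene type alone, with no measured value. The families hold 7 class 3 semaphorins, 13 membrane semaphorins, 9 plexins, 2 neuropilins, 8 ephrins, 14 Eph receptors, 3 SLIT ligands, 4 ROBO receptors, 4 netrins and 4 UNC5 receptors. All values come from BJ cells, a human skin fibroblast line, in which PURPL, a long noncoding RNA, was knocked down by CRISPR interference or overexpressed.

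The knockdown table holds 3 libraries of cells with the guide sgRNA-PURPL#1, 3 with the guide sgRNA-PURPL#2 and 3 with the control guide sgCtrl. The overexpression table holds 3 libraries of PURPL#1-OE, 3 of PURPL#2-OE and 3 of their own control, Ctrl. Every group is BJ cells in culture, and no other treatment or time is labelled. The labels do not say what separates PURPL#1-OE from PURPL#2-OE, which control vector the Ctrl cells carry, whether a group is 1 clone or a pool, or whether the 3 libraries of a group came from separate cultures, so p-values measure the spread between these libraries, which may be technical. Of the overexpression columns, 3 of PURPL#1-OE and 2 of PURPL#2-OE carry no replicate number and are called a, b and c here.

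Guidance molecules steer growing axons by attraction or repulsion at the growth cone, and the same molecules act on the shape, adhesion and migration of many other cells. Secreted SLITs bind ROBO receptors and repel. Netrins attract through DCC-type receptors and repel through UNC5 receptors. Semaphorins act through plexins, with neuropilins as co-receptors for most secreted class 3 members. Ephrins are anchored in the membrane, and their Eph receptors are tyrosine kinases, so that both cells in contact can signal.

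Library totals were 11444513 to 12896040 counts for knockdown and 18858976 to 27985649 counts for overexpression. PURPL itself lay at 14.1 to 17.9 CPM, counts scaled to the library total, with sgRNA-PURPL#1 and 17.9 to 21.5 CPM with sgRNA-PURPL#2, against 71.1 to 94.3 CPM with sgCtrl. It lay at 166 to 178 CPM in PURPL#1-OE and 114 to 129 CPM in PURPL#2-OE, against 59.2 to 67.3 CPM in Ctrl. The means of the 10 fibroblast markers were all above 1 CPM, whereas 3 of 5 neuronal and 4 of 5 endothelial markers were under 1 CPM. Fibroblast markers moved with overexpression: 8 of 10 were called higher in PURPL#1-OE and 9 of 10 in PURPL#2-OE, with sums of 27411 to 28688 CPM and 30012 to 31302 CPM, against 22524 to 23085 CPM in Ctrl. With sgRNA-PURPL#1, 4 of 10 were higher, and with sgRNA-PURPL#2, 4 were higher and 2 lower than with sgCtrl. The neuronal markers summed to 128 to 129 CPM with sgRNA-PURPL#1 and 136 to 148 CPM with sgRNA-PURPL#2, against 157 to 170.4 CPM with sgCtrl, and to 141 to 151 CPM in PURPL#1-OE and 105 to 109.8 CPM in PURPL#2-OE, against 111 to 121 CPM in Ctrl. Only 2 of these 5 were tested, and they did not move alike. With each guide SYT1 was called lower and SNAP25 did not pass. In PURPL#1-OE 1 was higher and 1 lower, and in PURPL#2-OE 1 was lower and none higher. Mitochondrial transcripts took 4.97% to 6.24% of counts in PURPL#1-OE and 5.37% to 5.90% in PURPL#2-OE, against 4.26% to 4.80% in Ctrl. All 8 proliferation markers were lower in both knockdown groups and in both overexpression groups. Their sum was 659 to 670 CPM with sgRNA-PURPL#1 and 729 to 752 CPM with sgRNA-PURPL#2, against 1071 to 1146 CPM with sgCtrl, and 471 to 493 CPM in PURPL#1-OE and 491 to 521 CPM in PURPL#2-OE, against 1103 to 1169 CPM in Ctrl. The part of all these in the changes below was not tested, and in bulk RNA fewer cells making a transcript cannot be told apart from less transcript in each cell.

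After a filter on low counts, 45 members could be tested for knockdown, 50 for overexpression and 44 for both. The filter asked for 3 libraries at about 10 counts. EPHA3 in the knockdown table, and EPHA7 and PLXNA4 in the overexpression table, met it only through 1 group in which they were high. The filter thus favoured a difference for these 3 members, and their values below are a description. SEMA4A and SEMA6C reached its level, about 0.405 CPM, in 7 overexpression libraries each, 4 of them outside PURPL#1-OE. Their Ctrl means, 0.376 and 0.441 CPM, lay below those of both overexpression groups. The filter therefore favoured a rise there too, and their calls are a description. The counts of called members include all of these, and the main counts are also given without EPHA3, EPHA7 and PLXNA4. The 17 members tested in neither had at most 59 counts over the 9 libraries of a table: EFNA1, EFNA2, EFNA3, EFNA4, EPHA1, EPHA6, EPHA8, EPHA10, NTN3, ROBO4, SEMA3G, SEMA5B, SEMA6B, SLIT1, UNC5A, UNC5C and UNC5D. EFNA4 had 0 counts in all 18 libraries, and 99.8% of its span is shared with a gene on the same strand. The tables hold no read for any of the 9429 genes that lie wholly inside a same-strand gene, so a 0 there is no sign of absent RNA. Shared span also covers 91.6% of EFNA3, 33.6% of EPHB1, 19.4% of PLXNB3 and 17.5% of SLIT1, whose counts are uncertain for that reason, and under 1.5% of every other member. Of 10950 genes that lie inside a gene of the opposite strand and clear of their own, 4772 had counts, so reads of the 2 strands were told apart in counting. Lengths in the tables are whole gene spans, so levels are compared between groups and not between genes.

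The stretches of 250 bases before the annotated start are shown for 5 members that the results below turn on: SLIT2, lower in both knockdown and both overexpression groups, EPHA4 and SEMA3B, higher in all of these, and NTN4 and SLIT3, whose responses differed between the tables. They were chosen after the values were seen. SEMA3A and ROBO2, also lower in all 4 comparisons, are not shown. For ROBO2 the nearest RefSeq start lies 404185 bases from the gene's start in the tables. Its 250 bases had 46.8% GC and held neither of the boxes marked below. The sequences are from RefSeq (GRCh38.p14), which lists a promoter for 58 of the 68 members, and each is the stretch upstream of the RefSeq start nearest to the gene's start in the tables. Capitals mark the GC box GGGCGG and the CCAAT box on either strand.
SLIT2: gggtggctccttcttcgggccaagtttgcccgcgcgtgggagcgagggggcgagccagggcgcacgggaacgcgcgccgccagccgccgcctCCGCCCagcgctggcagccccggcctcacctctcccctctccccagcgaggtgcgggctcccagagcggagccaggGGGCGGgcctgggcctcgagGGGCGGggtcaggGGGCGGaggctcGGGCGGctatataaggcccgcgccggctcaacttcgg
SLIT3: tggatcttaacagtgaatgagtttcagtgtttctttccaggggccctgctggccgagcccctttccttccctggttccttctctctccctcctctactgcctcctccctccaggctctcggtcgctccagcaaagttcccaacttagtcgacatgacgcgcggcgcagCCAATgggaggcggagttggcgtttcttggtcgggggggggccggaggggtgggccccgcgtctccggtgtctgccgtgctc
NTN4: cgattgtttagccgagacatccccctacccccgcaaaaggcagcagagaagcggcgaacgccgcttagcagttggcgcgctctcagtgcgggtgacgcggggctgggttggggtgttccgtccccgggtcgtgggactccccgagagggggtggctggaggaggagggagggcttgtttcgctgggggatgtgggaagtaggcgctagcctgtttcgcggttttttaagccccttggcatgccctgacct
EPHA4: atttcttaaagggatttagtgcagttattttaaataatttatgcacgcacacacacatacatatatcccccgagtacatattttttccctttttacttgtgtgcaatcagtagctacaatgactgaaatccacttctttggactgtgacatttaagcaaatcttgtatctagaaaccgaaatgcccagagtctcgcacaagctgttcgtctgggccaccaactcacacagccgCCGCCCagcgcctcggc
SEMA3B: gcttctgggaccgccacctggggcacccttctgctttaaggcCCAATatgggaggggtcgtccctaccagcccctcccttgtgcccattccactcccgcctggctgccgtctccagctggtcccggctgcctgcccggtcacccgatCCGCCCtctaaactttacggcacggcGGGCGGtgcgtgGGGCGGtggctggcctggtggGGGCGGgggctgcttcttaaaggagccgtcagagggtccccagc

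The SLIT2 stretch lies at chr4:20251655-20251904 on the plus strand, the SLIT3 stretch at chr5:169301140-169301389 on the minus strand, the NTN4 stretch at chr12:95791156-95791405 on the minus strand, the EPHA4 stretch at chr2:221574203-221574452 on the minus strand and the SEMA3B stretch at chr3:50267402-50267651 on the plus strand. GC content was 77.2% for SLIT2, 62.8% for SLIT3, 64.4% for NTN4, 43.2% for EPHA4 and 68.8% for SEMA3B, against a median of 58% over 35116 promoters. The GC box occurred 5 times before SLIT2, 4 times before SEMA3B and once before EPHA4, and 42.6% of the 35116 promoters hold it in their 250 bases. CCAAT occurred once before SLIT3 and once before SEMA3B, and 32.0% of promoters hold it. Neither the letters TATAAA, which 10.7% of promoters hold, nor TGANTCA, which 6.57% hold, occurred in any of the 5, searched on both strands, and no matches overlapped. Only exact letters were searched, and near matches, such as tatataag towards the end of the SLIT2 stretch, were not counted.

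**Figure D1:**
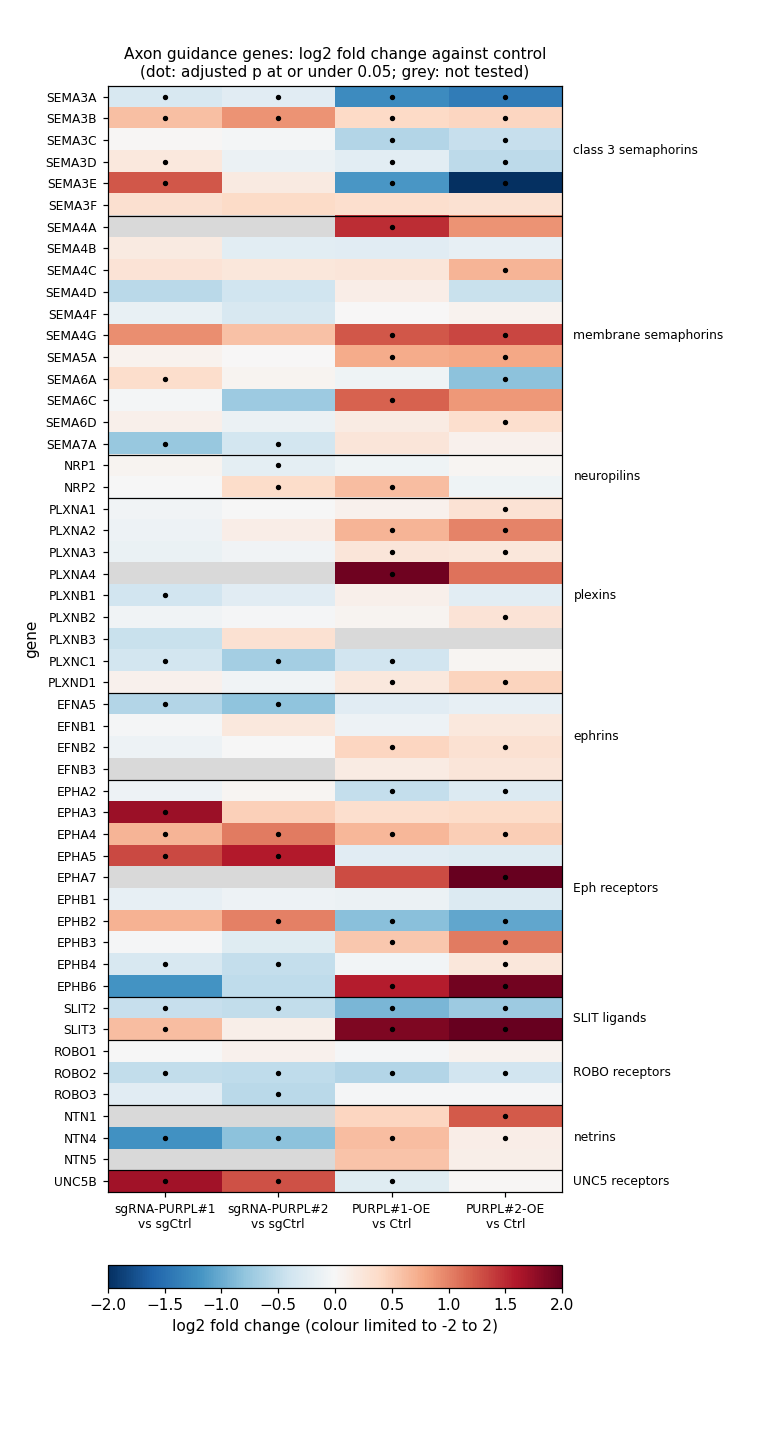
Log2 fold change of the 51 members tested in at least 1 table, by family, in each knockdown and overexpression group against its own control. Red is higher and blue lower than control, colour is limited to -2 to 2, dots mark adjusted p at or under 0.05, and grey marks members not tested in that table. Dots of EPHA3 in the knockdown table, and of EPHA7, PLXNA4, SEMA4A and SEMA6C in the overexpression table, are a description only because of the low-count filter.

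Against sgCtrl, 9 of 45 tested members were higher and 9 lower with sgRNA-PURPL#1, where 24.5% of all tested genes were called (11.6% higher and 12.9% lower). With sgRNA-PURPL#2, 6 were higher and 10 lower, where 24.4% of all tested genes were called (11.9% higher and 12.4% lower). In PURPL#1-OE, 16 of 50 members were higher and 10 lower than in Ctrl, where 39.6% of all genes were called (19.5% higher and 20.1% lower). In PURPL#2-OE, 19 were higher and 9 lower, where 38.5% of all genes were called (18.9% higher and 19.6% lower). Median log2 fold changes of the tested members were -0.02 and -0.03 with the 2 guides and 0.14 and 0.17 in PURPL#1-OE and PURPL#2-OE, against medians over all genes between -0.00141 and 0.00763. Without EPHA3, EPHA7 and PLXNA4 the members higher were 8 with sgRNA-PURPL#1, 15 in PURPL#1-OE and 18 in PURPL#2-OE, and the medians in the overexpression groups were 0.12 and 0.13. The 15 still include SEMA4A and SEMA6C. The shares describe the tested members and not all 68, and in both directions members changed in every comparison (the heat map of all tested members). Beside the counts by family below, the shares of all genes called higher or lower are the ones given here. Those shares cover every gene type and were not matched to the members in level. Changes below are log2 fold changes ± standard error (SE) with 3 libraries a group, and adjusted p-values are those of edgeR's quasi-likelihood test over all tested genes. The 2 comparisons of a table share their 3 control libraries, so that a change seen in both is not 2 independent results.

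SLIT2, a secreted repellent that binds ROBO receptors, was lower in all 4 comparisons. It had 182, 181 and 179 CPM with sgRNA-PURPL#1 and 174, 183 and 176 CPM with sgRNA-PURPL#2, against 213, 259 and 277 CPM with sgCtrl. The guide libraries lay between 174 and 183 CPM, below every control library. The changes were -0.47 ± 0.07 (adjusted p = 6.77e-06) with sgRNA-PURPL#1 and -0.49 ± 0.07 (adjusted p = 3.54e-06) with sgRNA-PURPL#2. With overexpression SLIT2 had 273, 291 and 291 CPM in PURPL#1-OE and 322, 332 and 322 CPM in PURPL#2-OE, against 546, 557 and 514 CPM in Ctrl. Levels there fell by 0.92 ± 0.05 on the log2 scale in PURPL#1-OE (adjusted p = 2.23e-15) and by 0.73 ± 0.05 in PURPL#2-OE (adjusted p = 5.58e-13), again with no overlap between groups.

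SLIT3, a second secreted SLIT, went the other way and had the highest mean rise of the members called in both overexpression groups. It had 166, 182 and 182 CPM in PURPL#1-OE and 192, 198 and 189.6 CPM in PURPL#2-OE, against 42.6, 50.6 and 51.3 CPM in Ctrl. That is 3.67 times the control level in PURPL#1-OE, a log2 fold change of 1.87 ± 0.06 (adjusted p = 1.88e-20), and 4.02 times in PURPL#2-OE, a log2 fold change of 2.01 ± 0.06 (adjusted p = 4.38e-21). In the knockdown table the 2 guides differed: SLIT3 had 36.96, 34.9 and 36.3 CPM with sgRNA-PURPL#1 and 26.1, 24.9 and 25.2 CPM with sgRNA-PURPL#2, against 22.4, 22.96 and 24.7 CPM with sgCtrl. It rose with sgRNA-PURPL#1, by 0.62 ± 0.08 (adjusted p = 5.18e-07), whereas the change with sgRNA-PURPL#2 was 0.12 ± 0.08 (adjusted p = 0.328), and between the guides the difference was -0.50 ± 0.08 (adjusted p = 4.53e-05), sgRNA-PURPL#2 minus sgRNA-PURPL#1.

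ROBO2, a SLIT receptor, was lower wherever SLIT2 was. It had 29.95, 28.7 and 30.8 CPM with sgRNA-PURPL#1 and 29.1, 31.2 and 28.03 CPM with sgRNA-PURPL#2, against 38.2, 44.8 and 42.6 CPM with sgCtrl. The changes were -0.49 ± 0.08 (adjusted p = 2.08e-05) and -0.51 ± 0.08 (adjusted p = 1.39e-05) with guides sgRNA-PURPL#1 and sgRNA-PURPL#2. It had 123, 124 and 115 CPM in PURPL#1-OE and 149, 130.0 and 142 CPM in PURPL#2-OE, against 182, 177 and 189 CPM in Ctrl. ROBO2 fell by 0.59 ± 0.05 in PURPL#1-OE (adjusted p = 2.97e-10) and by 0.38 ± 0.05 in PURPL#2-OE (adjusted p = 1.57e-06). In every one of these 4 comparisons all control libraries lay above all PURPL-altered libraries. The ROBO2 span is 1743270 bases long, and reads from introns count towards ROBO2 as they do towards every other member. ROBO1, a receptor for the same ligands, had log2 fold changes between -0.03 ± 0.05 and 0.09 ± 0.07 in the 4 comparisons, and none passed the test, but without sgCtrl replicate 3 the value with sgRNA-PURPL#2 was 0.18 and passed (adjusted p = 0.0411). ROBO3, the divergent member of the family, fell with sgRNA-PURPL#2 alone among the 4, with a change of -0.55 ± 0.12 (adjusted p = 0.000987), and the difference between its guides, -0.32 ± 0.12 (adjusted p = 0.0989), missed the threshold. That difference passed without the low-count filter (adjusted p = 0.026), in a fit of the 6 libraries alone (0.0307) and without sgRNA-PURPL#2 replicate 3, at -0.43 (0.0467).

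**Figure D2:**
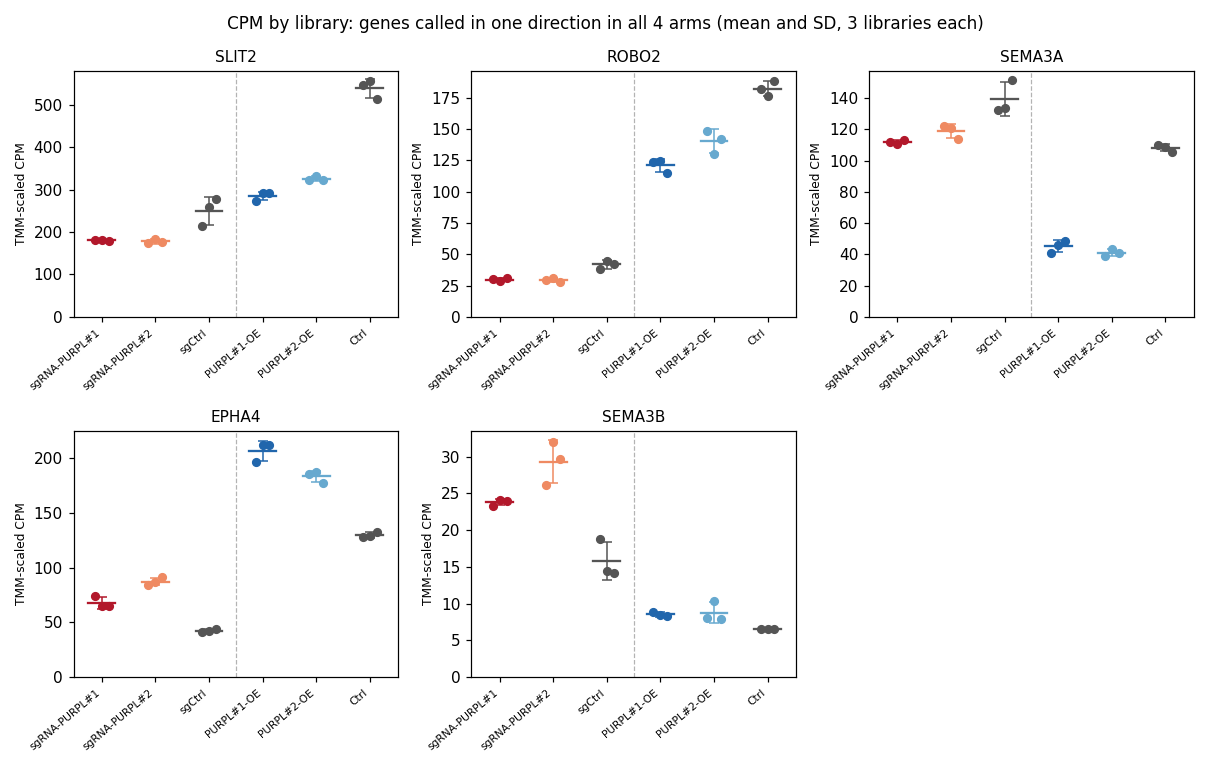
CPM in each library for the 5 members called in the same direction in both knockdown groups and both overexpression groups, with group mean and SD (n = 3 each), altered groups left of their control. SLIT2, ROBO2 and SEMA3A lie below control in all 4 comparisons and EPHA4 and SEMA3B above it. The 2 tables were normalized separately.

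NTN4, a secreted netrin that binds laminins in basement membranes, was the member whose calls ran down in both knockdown groups and up in both overexpression groups. It had 183, 197 and 199.5 CPM with sgRNA-PURPL#1 and 264, 248 and 244 CPM with sgRNA-PURPL#2, against 465, 430.3 and 442 CPM with sgCtrl. These libraries did not overlap with control, and NTN4 was 0.433 times the sgCtrl level with sgRNA-PURPL#1, a log2 fold change of -1.21 ± 0.06 (adjusted p = 8.28e-16), and 0.565 times with sgRNA-PURPL#2, a log2 fold change of -0.82 ± 0.06 (adjusted p = 3.31e-12). In the overexpression table it had 504, 470.0 and 495 CPM in PURPL#1-OE and 342, 353 and 351 CPM in PURPL#2-OE, against 325, 330.2 and 301 CPM in Ctrl. The rise in PURPL#1-OE was 0.62 ± 0.05 (adjusted p = 2.27e-11). That in PURPL#2-OE was 0.13 ± 0.05 (adjusted p = 0.0462) and depended on single libraries: it was 0.09 without Ctrl replicate 3 (adjusted p = 0.195), and its adjusted p was also above 0.05 without Ctrl replicate 1 (0.0752), without PURPL#2-OE library a (0.059), library b (0.0808) or replicate 3 (0.086), and with other size factors (0.0572), without the low-count filter (0.0909) or in a fit of the 6 libraries alone (0.0747). NTN1, the netrin that attracts commissural axons, was tested in the overexpression table only. It had 0.787, 0.495 and 0.554 CPM in PURPL#1-OE and 1.07, 0.787 and 1.35 CPM in PURPL#2-OE, against 0.857, 0.391 and 0.0516 CPM in Ctrl. Its call in PURPL#2-OE, 1.22 ± 0.46 (adjusted p = 0.0364), was lost without Ctrl replicate 2 (adjusted p = 0.107), without Ctrl replicate 3 (0.165), without PURPL#2-OE library a (0.0748) or without replicate 3 (0.156), and the value was 2.13 without Ctrl replicate 1.

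UNC5B, a netrin receptor that mediates repulsion, had the highest mean rise of the members called with both guides. It had 69.9, 70.1 and 82.4 CPM with sgRNA-PURPL#1 and 56.3, 55.1 and 55.7 CPM with sgRNA-PURPL#2, against 22.9, 25.1 and 21.2 CPM with sgCtrl. That is 3.21 and 2.41 times the control level, log2 fold changes of 1.68 ± 0.08 (adjusted p = 5.61e-16) with sgRNA-PURPL#1 and 1.27 ± 0.08 (adjusted p = 4.72e-13) with sgRNA-PURPL#2. Every guide library lay above 55 CPM and every control library at or below 25.1 CPM. Upon overexpression UNC5B had 19.6, 22.03 and 22.1 CPM in PURPL#1-OE and 25.6, 25.7 and 24.9 CPM in PURPL#2-OE, against 24.6, 25.5 and 24.99 CPM in Ctrl. The change in PURPL#1-OE was -0.24 ± 0.08 (adjusted p = 0.0155), a call lost without Ctrl replicate 2 (adjusted p = 0.0509) or PURPL#1-OE library a (0.108), and that in PURPL#2-OE was 0.02 ± 0.08 (adjusted p = 0.86). The other UNC5 receptors had too few counts to test.

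Class 3 semaphorins are secreted ligands of neuropilin and plexin complexes, and 6 of the 7 were tested. In PURPL#1-OE and in PURPL#2-OE 4 of the 6 (SEMA3A, SEMA3C, SEMA3D and SEMA3E) were lower and 1 (SEMA3B) higher than in Ctrl, where 20.1% and 19.6% of all genes were lower. With sgRNA-PURPL#1, 3 (SEMA3B, SEMA3D and SEMA3E) were higher and 1 (SEMA3A) lower than with sgCtrl, and with sgRNA-PURPL#2, SEMA3B was higher and SEMA3A lower. SEMA3D rose with sgRNA-PURPL#1 by 0.22 ± 0.07 (adjusted p = 0.0235), a call lost without sgCtrl replicate 1 (adjusted p = 0.101) or 2 (0.102) or sgRNA-PURPL#1 replicate 1 (0.0642) or 3 (0.13), and its change with sgRNA-PURPL#2, -0.12 ± 0.07 (adjusted p = 0.253), passed without sgCtrl replicate 1, at -0.19 (0.0253). SEMA3F passed in none of the 4, but without sgCtrl replicate 2 its change with sgRNA-PURPL#2 was 0.72 (adjusted p = 0.0468), against 0.38 ± 0.23 (adjusted p = 0.258) with all libraries.

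SEMA3A, the classical axon repellent of the group, had 41.1, 46.3 and 48.7 CPM in PURPL#1-OE and 39.02, 43.3 and 40.98 CPM in PURPL#2-OE, against 109.9, 109 and 106 CPM in Ctrl. It was 0.419 and 0.3799 times the control level, log2 fold changes of -1.26 ± 0.06 (adjusted p = 1.45e-16) in PURPL#1-OE and -1.40 ± 0.06 (adjusted p = 1.9e-17) in PURPL#2-OE. With the guides the fall was smaller: SEMA3A had 112, 111 and 113 CPM with sgRNA-PURPL#1 and 122, 121 and 114 CPM with sgRNA-PURPL#2, against 133, 134 and 152 CPM with sgCtrl. The changes were -0.32 ± 0.06 (adjusted p = 0.000289) with sgRNA-PURPL#1 and -0.23 ± 0.06 (adjusted p = 0.00783) with sgRNA-PURPL#2. The call with sgRNA-PURPL#2 was lost without sgCtrl replicate 3, at -0.16 (adjusted p = 0.0571), and without sgRNA-PURPL#2 replicate 3, at -0.19 (adjusted p = 0.0597).

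SEMA3B, a secreted semaphorin also known as a candidate tumour suppressor, rose in all 4 comparisons. It had 23.3, 24.1 and 23.97 CPM with sgRNA-PURPL#1 and 26.2, 31.98 and 29.7 CPM with sgRNA-PURPL#2, against 18.7, 14.4 and 14.2 CPM with sgCtrl. The rises were 0.60 ± 0.11 (adjusted p = 6.26e-05) with sgRNA-PURPL#1 and 0.90 ± 0.10 (adjusted p = 7.47e-08) with sgRNA-PURPL#2. After overexpression SEMA3B had 8.91, 8.497 and 8.27 CPM in PURPL#1-OE and 8.05, 10.4 and 7.95 CPM in PURPL#2-OE, against 6.51, 6.53 and 6.51 CPM in Ctrl. All 6 overexpression libraries lay above the 3 controls, with changes of 0.39 ± 0.12 (adjusted p = 0.00986) in PURPL#1-OE and 0.43 ± 0.12 (adjusted p = 0.0056) in PURPL#2-OE. Without PURPL#2-OE library b, the highest one, the PURPL#2-OE value was 0.30 (adjusted p = 0.0682).

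SEMA3E, which signals through PLXND1 without a neuropilin, had 1.22, 0.584 and 0.752 CPM in PURPL#1-OE and 0.426, 0.694 and 0.328 CPM in PURPL#2-OE, against 1.17, 2.07 and 2.69 CPM in Ctrl. It fell by 1.17 ± 0.33 in PURPL#1-OE (adjusted p = 0.00585) and by 2.01 ± 0.38 in PURPL#2-OE (adjusted p = 7.93e-05). The call in PURPL#1-OE was lost without Ctrl replicate 3, at -0.90 (adjusted p = 0.0558). In the knockdown table SEMA3E had 7.55, 8.48 and 7.84 CPM with sgRNA-PURPL#1 and 3.304, 3.94 and 4.07 CPM with sgRNA-PURPL#2, against 3.64, 3.04 and 3.37 CPM with sgCtrl. It rose with sgRNA-PURPL#1 by 1.25 ± 0.17 (adjusted p = 8.92e-07), the change with sgRNA-PURPL#2 was 0.18 ± 0.19 (adjusted p = 0.55), and the guides differed by -1.07 ± 0.16 (adjusted p = 2.43e-05).

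SEMA3C, a secreted ligand known from heart outflow tract and vascular development, had 1074, 1130.3 and 1115 CPM in PURPL#1-OE and 1192, 1252 and 1191 CPM in PURPL#2-OE, against 1672, 1638 and 1692 CPM in Ctrl. It fell by 0.59 ± 0.05 in PURPL#1-OE (adjusted p = 3.37e-11) and by 0.46 ± 0.05 in PURPL#2-OE (adjusted p = 7.12e-09), with every control library above every other. It had 875, 844 and 816 CPM with sgRNA-PURPL#1 and 796, 836 and 813 CPM with sgRNA-PURPL#2, against 792, 833 and 877 CPM with sgCtrl. The groups overlapped there, and the changes were 0.02 ± 0.06 (adjusted p = 0.854) with sgRNA-PURPL#1 and -0.03 ± 0.06 (adjusted p = 0.721) with sgRNA-PURPL#2.

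Among the membrane semaphorins 11 of 13 were tested in the overexpression table, and 4 (SEMA4A, SEMA4G, SEMA5A and SEMA6C) were higher in PURPL#1-OE, and 4 higher (SEMA4C, SEMA4G, SEMA5A and SEMA6D) and 1 lower (SEMA6A) in PURPL#2-OE. Of 10 tested in the knockdown table, 1 (SEMA6A) was higher and 1 (SEMA7A) lower with sgRNA-PURPL#1, and SEMA7A was the member lower with sgRNA-PURPL#2. SEMA4A had 0.752 to 1.43 CPM in PURPL#1-OE and 0.555 to 0.86 CPM in PURPL#2-OE, against 0.274 to 0.465 CPM in Ctrl. SEMA6C had 0.831 to 1.17 CPM in PURPL#1-OE and 0.697 to 0.959 CPM in PURPL#2-OE, against 0.274 to 0.741 CPM in Ctrl. Both met the low-count filter mainly through the overexpression groups, so their calls are a description. The SEMA4A call was lost without PURPL#1-OE library a (adjusted p = 0.056), the SEMA4C call without Ctrl replicate 1 (0.109) or 2 (0.0641) or PURPL#2-OE library a (0.0839) or b (0.0742), and the SEMA6C call without Ctrl replicate 2 (0.103) or 3 (0.0702) or PURPL#1-OE library a (0.0518) or b (0.0587). In PURPL#2-OE the SEMA6C change of 0.86 ± 0.41 (adjusted p = 0.095) passed without Ctrl replicate 1, at 1.49 (adjusted p = 0.0177). SEMA5A, a transmembrane semaphorin with thrombospondin repeats, had 1043, 1044 and 1028 CPM in PURPL#1-OE and 1064, 1029 and 1085 CPM in PURPL#2-OE, against 635, 604 and 615 CPM in Ctrl. The rises were 0.75 ± 0.05 (adjusted p = 1.33e-13) in PURPL#1-OE and 0.78 ± 0.05 (adjusted p = 6.54e-14) in PURPL#2-OE, and the 6 overexpression libraries lay apart from the 3 controls. SEMA5A had 391, 382 and 390.0 CPM with sgRNA-PURPL#1 and 359, 396 and 363 CPM with sgRNA-PURPL#2, against 316, 376 and 416 CPM with sgCtrl, with changes of 0.07 ± 0.07 and 0.01 ± 0.07 that did not pass the test.

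SEMA4G, a transmembrane class 4 semaphorin, had low counts and 1.57, 1.39 and 1.23 CPM in PURPL#1-OE and 1.81, 1.43 and 1.27 CPM in PURPL#2-OE, against 0.624, 0.704 and 0.413 CPM in Ctrl. It rose by 1.24 ± 0.31 (adjusted p = 0.00188) in PURPL#1-OE and by 1.33 ± 0.31 (adjusted p = 0.00108) in PURPL#2-OE. In the knockdown table it had 1.4005, 0.872 and 1.13 CPM with sgRNA-PURPL#1 and 0.661, 0.839 and 1.17 CPM with sgRNA-PURPL#2, against 0.607, 0.856 and 0.313 CPM with sgCtrl, and the changes of 0.93 ± 0.42 and 0.59 ± 0.44 did not pass the test (adjusted p = 0.111 and 0.367).

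SEMA7A, the semaphorin held by a lipid anchor that binds integrins and PLXNC1, had 10.8, 10.5 and 9.41 CPM with sgRNA-PURPL#1 and 12.4, 12.8 and 15.1 CPM with sgRNA-PURPL#2, against 17.9, 17.98 and 16.4 CPM with sgCtrl. It fell by 0.76 ± 0.11 with sgRNA-PURPL#1 (adjusted p = 5.18e-06) and by 0.37 ± 0.11 with sgRNA-PURPL#2 (adjusted p = 0.0128). The call with sgRNA-PURPL#2 was lost without sgCtrl replicate 2 (adjusted p = 0.0542), without replicate 1 (0.0721) or replicate 2 (0.0571) of sgRNA-PURPL#2, and by DESeq2 (0.0523). SEMA7A had 3.68, 4.77 and 3.92 CPM in PURPL#1-OE and 3.997, 3.29 and 3.81 CPM in PURPL#2-OE, against 3.82, 3.79 and 2.69 CPM in Ctrl, and the groups overlapped.

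PLXNC1, the plexin that receives SEMA7A, also fell with both guides. It had 18.9, 21.2 and 20.6 CPM with sgRNA-PURPL#1 and 17.9, 16.5 and 14.4 CPM with sgRNA-PURPL#2, against 23.6, 24.7 and 30.1 CPM with sgCtrl. The falls were 0.37 ± 0.10 with sgRNA-PURPL#1 (adjusted p = 0.0065), lost without sgCtrl replicate 3 at -0.26 (adjusted p = 0.0619), and 0.69 ± 0.10 with sgRNA-PURPL#2 (adjusted p = 8.13e-06). In the overexpression table it had 33.3, 32.2 and 32.6 CPM in PURPL#1-OE and 45.3, 43.7 and 42.2 CPM in PURPL#2-OE, against 43.3, 45.9 and 38.4 CPM in Ctrl. There it fell in PURPL#1-OE, with a change of -0.38 ± 0.07 (adjusted p = 4.03e-05), whereas the change in PURPL#2-OE was 0.04 ± 0.07 (adjusted p = 0.721), and the 2 groups differed by 0.42 ± 0.07 (adjusted p = 6.65e-05).

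PLXNA2, a plexin that receives class 3 and class 6 semaphorins, had 26.9, 26.7 and 26.4 CPM in PURPL#1-OE and 35.8, 33.04 and 30.6 CPM in PURPL#2-OE, against 15.7, 17.6 and 16.4 CPM in Ctrl. It rose by 0.69 ± 0.08 (adjusted p = 3.76e-08) in PURPL#1-OE and by 1.00 ± 0.08 (adjusted p = 1.79e-11) in PURPL#2-OE, with no overlap with Ctrl. With the guides PLXNA2 had 15.6, 16.2 and 15.7 CPM with sgRNA-PURPL#1 and 18.8, 18.7 and 18.1 CPM with sgRNA-PURPL#2, against 15.1, 16.97 and 18.6 CPM with sgCtrl, and the changes of -0.10 ± 0.10 and 0.13 ± 0.10 did not pass the test. Of the 8 plexins tested in the overexpression table, 4 (PLXNA2, PLXNA3, PLXNA4 and PLXND1) were higher and 1 (PLXNC1) lower in PURPL#1-OE, and 5 (PLXNA1, PLXNA2, PLXNA3, PLXNB2 and PLXND1) were higher in PURPL#2-OE, where 19.5% and 18.9% of all genes were higher. Of the 8 tested in the knockdown table none was higher with either guide, 2 (PLXNB1 and PLXNC1) were lower with sgRNA-PURPL#1 and 1 (PLXNC1) with sgRNA-PURPL#2. PLXNA4 is counted here although it met the low-count filter through PURPL#1-OE alone, with 0.429, 0.5395 and 0.554 CPM in PURPL#1-OE and 0.107, 0.3702 and 0.328 CPM in PURPL#2-OE, against 0.234, 0.0391 and 0.103 CPM in Ctrl, and without it 3 plexins were higher in PURPL#1-OE. The PLXND1 call in PURPL#1-OE was lost without library c (adjusted p = 0.0571). The PLXNA3 calls were lost without Ctrl replicate 2 in PURPL#1-OE (0.0852) and PURPL#2-OE (0.127), without Ctrl replicate 1 in PURPL#2-OE (0.0677), without library a (0.0539) or c (0.0584) of PURPL#1-OE and without library a of PURPL#2-OE (0.177). Without PLXNA4, the range of plexin log2 fold changes was -0.38 to 0.69 in PURPL#1-OE and -0.21 to 1.00 in PURPL#2-OE, and -0.44 to 0.09 with sgRNA-PURPL#1 and -0.69 to 0.30 with sgRNA-PURPL#2.

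The neuropilins NRP1 and NRP2, co-receptors of the secreted semaphorins, did not move alike. NRP1 had 510.2, 491 and 505 CPM with sgRNA-PURPL#1 and 413, 432 and 421 CPM with sgRNA-PURPL#2, against 451, 496 and 499 CPM with sgCtrl. It fell with sgRNA-PURPL#2, with a change of -0.19 ± 0.06 (adjusted p = 0.0124), a call lost without sgCtrl replicate 2 (adjusted p = 0.0634) or replicate 1 of that guide (0.0651), the change with sgRNA-PURPL#1 was 0.06 ± 0.06 (adjusted p = 0.512), and neither overexpression group passed (-0.08 ± 0.05 in PURPL#1-OE and 0.03 ± 0.05 in PURPL#2-OE). NRP2 had 32.4, 32.4 and 34.1 CPM in PURPL#1-OE and 20.6, 19.9 and 20.2 CPM in PURPL#2-OE, against 24.1, 20.6 and 19.5 CPM in Ctrl. The 3 PURPL#1-OE libraries lay above all others, with a change of 0.62 ± 0.08 (adjusted p = 2.2e-07) against Ctrl, whereas that of PURPL#2-OE was -0.09 ± 0.08 (adjusted p = 0.453). With sgRNA-PURPL#2 it rose by 0.36 ± 0.12 (adjusted p = 0.0246), a call lost without sgCtrl replicate 1 (0.119), without replicate 1 (0.0792) or 3 (0.1) of that guide, and by DESeq2 (0.0874).

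EFNA5, a lipid-anchored ephrin of the A class, was the ephrin called with both guides. It had 4.28, 5.71 and 4.01 CPM with sgRNA-PURPL#1 and 4.05, 5.54 and 2.51 CPM with sgRNA-PURPL#2, against 6.68, 5.68 and 8.69 CPM with sgCtrl. The falls were 0.59 ± 0.21 with sgRNA-PURPL#1 (adjusted p = 0.0453) and 0.81 ± 0.22 with sgRNA-PURPL#2 (adjusted p = 0.00757). sgRNA-PURPL#1 replicate 2 lay above sgCtrl replicate 2, so the groups overlapped. The call with sgRNA-PURPL#1 was lost without sgCtrl replicate 3, at -0.40 (adjusted p = 0.198), without sgRNA-PURPL#1 replicate 1 (0.155) or replicate 3 (0.166), and by DESeq2 (0.119), and that with sgRNA-PURPL#2 without its replicate 3, at -0.55 (0.0726). EFNA5 passed in neither overexpression group. EFNB2, the transmembrane ephrin that EPHB4 binds, rose in PURPL#1-OE by 0.43 ± 0.05 (adjusted p = 2.97e-08) and in PURPL#2-OE by 0.31 ± 0.05 (adjusted p = 9.49e-06), and its changes with the guides were -0.11 ± 0.06 and -0.01 ± 0.06. Without sgCtrl replicate 1 the value with sgRNA-PURPL#1 was -0.16 and passed (adjusted p = 0.0375). EFNB1 passed in none of the 4 comparisons.

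Of the Eph receptors, 9 were tested in the knockdown table, and with each guide 3 were higher and 1 (EPHB4) lower, where 11.6% of all genes were higher with sgRNA-PURPL#1 and 11.9% with sgRNA-PURPL#2. EPHA4 and EPHA5 were higher with both guides, EPHA3 with sgRNA-PURPL#1 and EPHB2 with sgRNA-PURPL#2. EPHA3, a receptor of A-class ephrins, had 0.934, 1.109 and 1.48 CPM with sgRNA-PURPL#1 and 0.3304, 0.336 and 0.783 CPM with sgRNA-PURPL#2, against 0.173, 0.389 and 0.4698 CPM with sgCtrl. The sums of 43 counts with sgRNA-PURPL#1 and 18 counts with sgRNA-PURPL#2, against 13 counts with sgCtrl, are few, and EPHA3 met the low-count filter through sgRNA-PURPL#1 alone. Without it, 2 Eph receptors were higher with that guide. Of the 10 tested for overexpression, 3 (EPHA4, EPHB3 and EPHB6) were higher and 2 (EPHA2 and EPHB2) lower in PURPL#1-OE, and 5 (EPHA4, EPHA7, EPHB3, EPHB4 and EPHB6) were higher and the same 2 lower in PURPL#2-OE. EPHA7 met the low-count filter through PURPL#2-OE alone, and without it 4 were higher there. EPHA4, which binds ephrins of both classes, was higher in all 4 comparisons. It had 73.8, 64.8 and 64.7 CPM with sgRNA-PURPL#1 and 84.2, 86.7 and 91.4 CPM with sgRNA-PURPL#2, against 40.9, 42.4 and 44.001 CPM with sgCtrl. The rises were 0.68 ± 0.07 (adjusted p = 1.14e-08) with sgRNA-PURPL#1 and 1.04 ± 0.07 (adjusted p = 1.02e-12) with sgRNA-PURPL#2, and the guides differed by 0.37 ± 0.07 (adjusted p = 0.000301). EPHA4 had 196, 212 and 212 CPM in PURPL#1-OE and 186, 187 and 178 CPM in PURPL#2-OE, against 128, 129 and 133 CPM in Ctrl. Here it rose by 0.67 ± 0.05 (adjusted p = 3.63e-12) in PURPL#1-OE and by 0.50 ± 0.05 (adjusted p = 2.77e-09) in PURPL#2-OE, and no altered library reached down to a control library in either table.

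EPHA5, a receptor of A-class ephrins, rose with both guides. It had 10.9, 8.24 and 8.19 CPM with sgRNA-PURPL#1 and 10.5, 12.002 and 10.3 CPM with sgRNA-PURPL#2, against 2.69, 4.05 and 4.15 CPM with sgCtrl. Guide libraries were all at or above 8.19 CPM and control libraries at or below 4.15 CPM. EPHA5 was 2.495 and 2.99 times the control level, log2 fold changes of 1.32 ± 0.17 (adjusted p = 6.66e-07) with sgRNA-PURPL#1 and 1.58 ± 0.17 (adjusted p = 2.02e-08) with sgRNA-PURPL#2. In the overexpression table it had 9.12, 10.3 and 9.97 CPM in PURPL#1-OE and 7.89, 9.72 and 10.7 CPM in PURPL#2-OE, against 12.7, 10.5 and 11.1 CPM in Ctrl, and the changes of -0.22 ± 0.11 and -0.26 ± 0.12 did not pass the test (adjusted p = 0.121 and 0.0735). Leaving out Ctrl replicate 2 or PURPL#2-OE replicate 3 brought the PURPL#2-OE value past it, at -0.32 (adjusted p = 0.0482) and -0.37 (0.0227). The 2 tables' control cells also stood apart, with EPHA5 at 2.69 to 4.15 CPM with sgCtrl and 10.5 to 12.7 CPM in Ctrl, tables that were normalized separately.

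EPHB4, the receptor of ephrin-B2, had 34.001, 34.9 and 30.5 CPM with sgRNA-PURPL#1 and 29.8, 29.04 and 30.5 CPM with sgRNA-PURPL#2, against 39.99, 43.6 and 40.9 CPM with sgCtrl. It fell by 0.32 ± 0.08 with sgRNA-PURPL#1 (adjusted p = 0.002) and by 0.48 ± 0.08 with sgRNA-PURPL#2 (adjusted p = 2.3e-05), with no overlap between guide and control libraries. EPHB4 had 15.2, 15.3 and 15.5 CPM in PURPL#1-OE and 18.8, 18.8 and 18.7 CPM in PURPL#2-OE, against 14.8, 17.6 and 15.6 CPM in Ctrl. The change in PURPL#1-OE was -0.06 ± 0.09 (adjusted p = 0.63). The call in PURPL#2-OE, 0.23 ± 0.09 (adjusted p = 0.0426), was lost without Ctrl replicate 1 (adjusted p = 0.204) or 3 (0.0941), without PURPL#2-OE library a (0.0779), b (0.0688) or replicate 3 (0.0655), by DESeq2 (0.0934), without the low-count filter (0.0962) and in a fit of the 6 libraries alone (0.0538).

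EPHB6, an Eph receptor whose kinase domain is inactive, had 4.86, 4.45 and 5.34 CPM in PURPL#1-OE and 5.76, 6.896 and 6.23 CPM in PURPL#2-OE, against 1.44, 1.76 and 1.76 CPM in Ctrl. It rose to 2.97 times the control level in PURPL#1-OE, a log2 fold change of 1.57 ± 0.17 (adjusted p = 9.35e-09), and to 3.82 times in PURPL#2-OE, a log2 fold change of 1.93 ± 0.17 (adjusted p = 1.09e-10). In the knockdown table counts were low, with 0.156, 0.317 and 1.05 CPM with sgRNA-PURPL#1 and 0.991, 1.01 and 0.391 CPM with sgRNA-PURPL#2, against 1.04, 1.17 and 1.17 CPM with sgCtrl. Apart from sgRNA-PURPL#1 replicate 3, the guide libraries lay below all 3 controls, but the changes of -1.19 ± 0.49 (adjusted p = 0.0764) with sgRNA-PURPL#1 and -0.51 ± 0.44 (adjusted p = 0.446) with sgRNA-PURPL#2 did not pass the test. Without sgRNA-PURPL#1 replicate 3 the value with that guide was -2.22 (adjusted p = 0.00841).

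EPHB2 and EPHB3, kinase receptors of B-class ephrins, moved in opposite directions in the overexpression table. EPHB2 had 1.32, 0.584 and 0.752 CPM in PURPL#1-OE and 0.746, 0.879 and 0.738 CPM in PURPL#2-OE, against 1.17, 1.76 and 1.96 CPM in Ctrl. It fell by 0.84 ± 0.31 in PURPL#1-OE (adjusted p = 0.0338) and by 1.03 ± 0.33 in PURPL#2-OE (adjusted p = 0.0129). One PURPL#1-OE library, a, lay inside the control range. The PURPL#1-OE value was -1.26 without library a, and its call was lost without library b (adjusted p = 0.151) or c (0.115), without Ctrl replicate 2 (0.101) or 3 (0.126) and by DESeq2 (0.0942), while that in PURPL#2-OE was lost without Ctrl replicate 3 (0.0564). With the guides EPHB2 had 2.65, 2.46 and 2.35 CPM with sgRNA-PURPL#1 and 3.63, 2.43 and 3.21 CPM with sgRNA-PURPL#2, against 1.39, 1.48 and 1.72 CPM with sgCtrl, changes of 0.70 ± 0.26 (adjusted p = 0.0506) and 1.01 ± 0.25 (adjusted p = 0.00329), with all 6 guide libraries above all 3 controls.

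EPHB3 had 4.11, 3.33 and 3.5999 CPM in PURPL#1-OE and 6.08, 5.69 and 4.06 CPM in PURPL#2-OE, against 3.04, 2.54 and 1.96 CPM in Ctrl. It rose by 0.54 ± 0.19 (adjusted p = 0.0244) in PURPL#1-OE and by 1.04 ± 0.18 (adjusted p = 3.6e-05) in PURPL#2-OE. The groups did not overlap, but the call in PURPL#1-OE was lost without Ctrl replicate 2 (adjusted p = 0.0546), without Ctrl replicate 3 (0.12), without PURPL#1-OE library a (0.115) and by DESeq2 (0.07). With the guides EPHB3 had 8.25, 9.75 and 9.24 CPM with sgRNA-PURPL#1 and 9.004, 7.22 and 7.28 CPM with sgRNA-PURPL#2, against 10.6, 9.73 and 7.44 CPM with sgCtrl, and neither change passed (-0.02 ± 0.14 and -0.24 ± 0.15). EPHA2, a receptor of A-class ephrins, had 14.6, 15.2 and 14.9 CPM in PURPL#1-OE and 17.9, 17.4 and 15.8 CPM in PURPL#2-OE, against 19.3, 21.5 and 21.1 CPM in Ctrl. It fell by 0.47 ± 0.09 in PURPL#1-OE (adjusted p = 6.43e-05) and by 0.28 ± 0.09 in PURPL#2-OE (adjusted p = 0.0122), a call lost without Ctrl replicate 2 (0.0565) or PURPL#2-OE replicate 3 (0.0663).

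**Figure D3:**
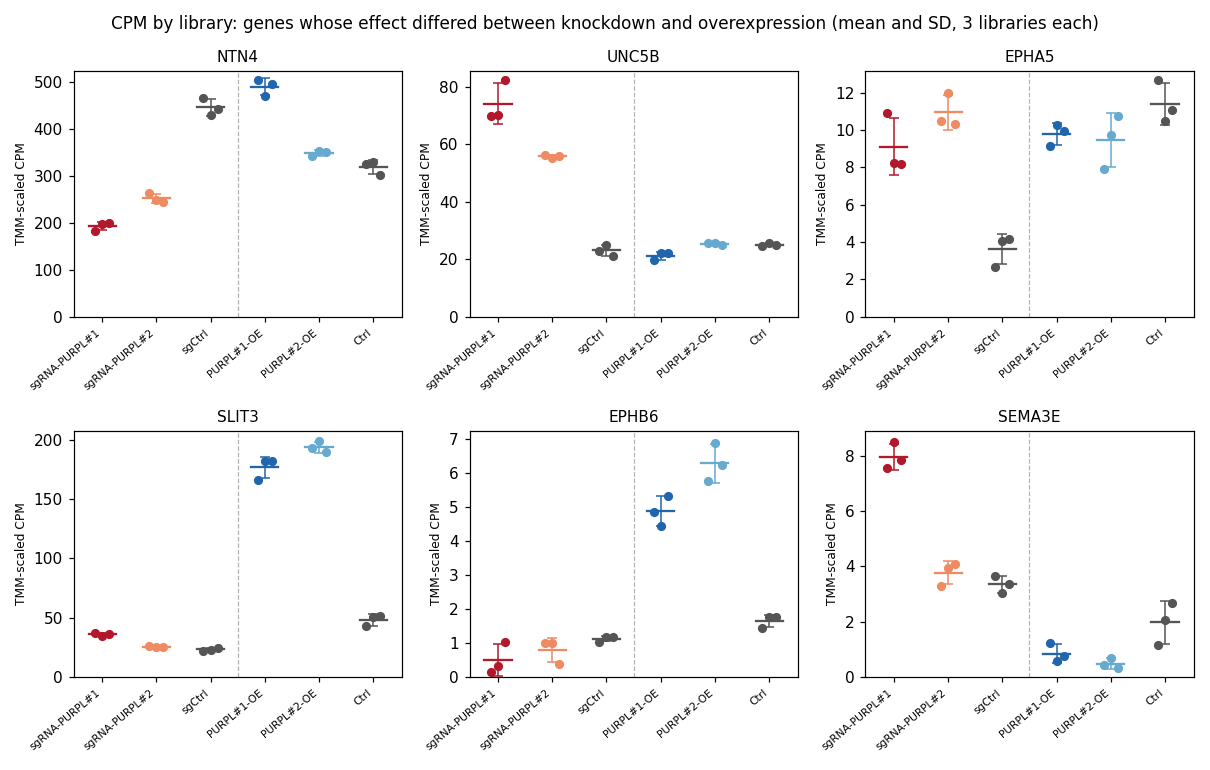
CPM in each library for NTN4, UNC5B, EPHA5, SLIT3, EPHB6 and SEMA3E, with group mean and SD (n = 3 each), altered groups left of their control. NTN4 lies below sgCtrl with both guides and above Ctrl in both overexpression groups, UNC5B and EPHA5 lie above control in the knockdown table only, and SLIT3 and EPHB6 rise in the overexpression table.

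Whether knockdown and overexpression changed a member unlike each other was tested in 1 fit of all 18 libraries, as the mean change of the 2 guides against sgCtrl minus the mean change of the 2 overexpression groups against Ctrl. Each table keeps its own control, and what else set the tables apart, such as depth, cannot be told apart from the manipulation. Of 49 members tested, 11 had a higher change under knockdown and 14 a lower one, where 33.6% of all genes were called (18% higher and 15.6% lower). Their median difference was -0.21, against 0.00903 over all genes.

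Opposite changes in the 2 tables stood behind the differences of NTN4, EPHB2 and SEMA3E. For NTN4 the mean changes were -1.01 ± 0.05 under knockdown and 0.37 ± 0.05 under overexpression, a difference of -1.38 ± 0.07 (adjusted p = 6.62e-21). For EPHB2 they were 0.86 ± 0.26 and -0.93 ± 0.24, a difference of 1.79 ± 0.35 (adjusted p = 6.66e-05). SEMA3E had mean changes of 0.72 ± 0.20 under knockdown and -1.58 ± 0.24 under overexpression, a difference of 2.29 ± 0.32 (adjusted p = 1.29e-07), although its knockdown value came from sgRNA-PURPL#1 and not from sgRNA-PURPL#2. For EPHB6 the knockdown value of -0.85 ± 0.34 did not pass on its own (adjusted p = 0.0627), while the overexpression value was 1.75 ± 0.18 and the difference -2.60 ± 0.40 (adjusted p = 1.12e-06).

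A larger change in 1 table than in the other stood behind others. UNC5B differed by 1.59 ± 0.10 (adjusted p = 6.04e-18), with mean changes of 1.48 ± 0.07 under knockdown and -0.11 ± 0.07 under overexpression. EPHA5 differed by 1.70 ± 0.18 (adjusted p = 3.92e-10), with 1.45 ± 0.15 under knockdown and -0.25 ± 0.10 under overexpression. SEMA5A differed by -0.72 ± 0.08 (adjusted p = 5.35e-10) and PLXNA2 by -0.82 ± 0.11 (adjusted p = 6.63e-08), both near 0 under knockdown and higher under overexpression. SLIT3 rose in both means, by 0.37 ± 0.07 under knockdown and 1.94 ± 0.06 under overexpression, and differed by -1.56 ± 0.09 (adjusted p = 1.43e-18). Its knockdown rise passed with sgRNA-PURPL#1 and not with sgRNA-PURPL#2.

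Members that moved one way in both tables also differed in size. SEMA3A fell by 0.27 ± 0.05 under knockdown and by 1.33 ± 0.05 under overexpression, and the difference was 1.06 ± 0.08 (adjusted p = 2.24e-15). SLIT2 fell by 0.48 ± 0.06 and by 0.82 ± 0.05, a difference of 0.35 ± 0.08 (adjusted p = 0.000369). EPHA4 rose by 0.86 ± 0.06 and by 0.58 ± 0.05, a difference of 0.28 ± 0.08 (adjusted p = 0.00369). For ROBO2 the difference was -0.01 ± 0.08 (adjusted p = 0.94), with a 95% interval from -0.18 to 0.16, and for SEMA3B 0.34 ± 0.14 (adjusted p = 0.0614), with an interval from 0.05 to 0.63. The SEMA3B difference passed without sgCtrl replicate 1, at 0.47 (adjusted p = 0.0104), without sgRNA-PURPL#2 replicate 1, at 0.37 (0.0429), and without PURPL#2-OE library b, at 0.41 (0.0189).

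**Figure D4:**
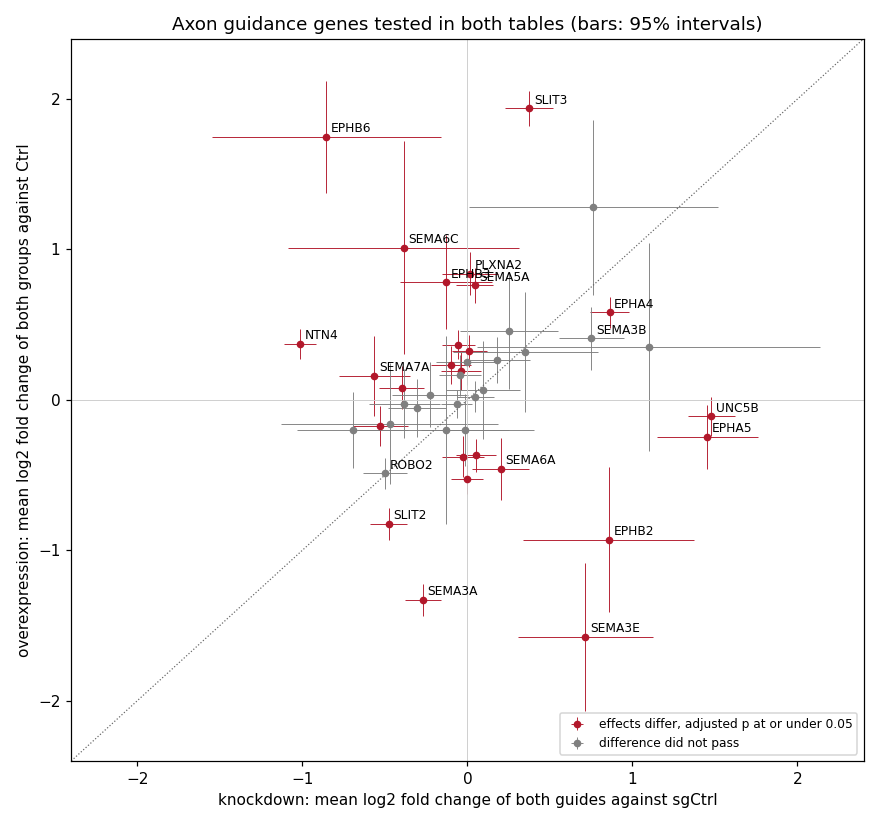
Mean log2 fold change of both guides against sgCtrl (x axis) and of both overexpression groups against Ctrl (y axis) for the 44 members tested in both tables, with 95% intervals from 1 fit of 18 libraries. Red marks members whose 2 changes differ at an adjusted p at or under 0.05, and on the dotted line the changes are equal. ROBO2 lies on that line, NTN4 and EPHB6 lie in the upper left, UNC5B and EPHA5 to the right near 0 on the y axis, and SLIT3 at the top.

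By the calls in the 4 comparisons, the 44 members tested in both tables held 3 that were lower in all 4 (SLIT2, ROBO2 and SEMA3A), 2 that were higher in all 4 (EPHA4 and SEMA3B), 1 that was lower in both knockdown groups and higher in both overexpression groups (NTN4), and 7 that passed in none. The other 31 passed in at least 1 comparison in other combinations. The shares of all genes with these patterns were not computed, so the counts describe the members and do not set them apart from other genes. Of the calls of these 6 members, those of SEMA3A with sgRNA-PURPL#2, SEMA3B in PURPL#2-OE and NTN4 in PURPL#2-OE were lost without single libraries as given above.

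The 2 guides did not act alike on every member. Directly compared, 4 of 45 members (EPHA4, NRP2, NTN4 and SEMA7A) were higher and 6 lower with sgRNA-PURPL#2 than with sgRNA-PURPL#1, where 9.25% of all genes were called (5.51% higher and 3.74% lower). Besides SLIT3, SEMA3E and EPHA4 above, NTN4 was higher with sgRNA-PURPL#2 by 0.38 ± 0.06 (adjusted p = 2.97e-05) and UNC5B lower, with a difference of -0.41 ± 0.07 (adjusted p = 0.000229), in both cases nearer to sgCtrl. SEMA7A was likewise nearer to sgCtrl with sgRNA-PURPL#2, by 0.39 ± 0.12 (adjusted p = 0.0294), a call lost without replicate 2 (adjusted p = 0.072) or 3 (0.145) of sgRNA-PURPL#1 or replicate 3 of sgRNA-PURPL#2 (0.21). PURPL itself was slightly higher with sgRNA-PURPL#2 than with sgRNA-PURPL#1 in the ranges given above, and its part in these differences was not tested.

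Between the overexpression groups, 9 of 50 members were higher and 5 (EPHA4, NRP2, NTN4, SEMA3D and SEMA6A) lower in PURPL#2-OE than in PURPL#1-OE, where 12.4% of all genes were called (6.18% higher and 6.19% lower). EPHA7, a receptor of A-class ephrins, is among the 9, and without it 8 were higher. It had 0.286, 0.3597 and 0.435 CPM in PURPL#1-OE and 1.39, 1.48 and 1.23 CPM in PURPL#2-OE, against 0.117, 0.117 and 0.207 CPM in Ctrl. The PURPL#2-OE libraries lay above 1.2 CPM and all others below 0.5 CPM, and the member was tested only because it was high in PURPL#2-OE. SEMA6A, a transmembrane semaphorin, had 6.796, 7.598 and 8.51 CPM in PURPL#1-OE and 3.997, 3.98 and 5.61 CPM in PURPL#2-OE, against 7.76, 8.13 and 8.47 CPM in Ctrl. It fell in PURPL#2-OE, with a change of -0.83 ± 0.14 (adjusted p = 2.02e-05), was -0.09 ± 0.13 (adjusted p = 0.63) in PURPL#1-OE, and differed between the 2 groups by -0.74 ± 0.14 (adjusted p = 0.000428). NRP2 differed by -0.71 ± 0.08 (adjusted p = 2.06e-07) and NTN4 by -0.49 ± 0.05 (adjusted p = 3.14e-08), both nearer to Ctrl in PURPL#2-OE.

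Genes that bind, cleave or act downstream of the guidance receptors were listed separately, 58 in all, of which 47 were tested for knockdown and 51 for overexpression. With sgRNA-PURPL#1, 12 were higher and 12 lower than with sgCtrl (51.1% called, against 24.5% of all genes), and with sgRNA-PURPL#2, 7 were higher and 8 lower (31.9%, against 24.4%). In PURPL#1-OE, 13 were higher and 17 lower than in Ctrl (58.8% called, against 39.6% of all genes), and in PURPL#2-OE, 13 were higher and 15 lower (54.9%, against 38.5%). Their median log2 fold changes were -0.04 and 0.05 with the guides and -0.01 and -0.04 in the overexpression groups. The listed genes are protein-coding, whereas the shares of all genes cover every gene type and were not matched in level. What stands behind the higher shares was not tested. RND3, a GTP-binding protein that lowers contractility and binds plexins, had a log2 fold change of -1.44 ± 0.05 (adjusted p = 1.85e-19) in PURPL#1-OE and -1.30 ± 0.05 (adjusted p = 2.61e-18) in PURPL#2-OE, against 0.30 ± 0.05 (adjusted p = 8.98e-05) with sgRNA-PURPL#1 and 0.09 ± 0.05 (adjusted p = 0.273) with sgRNA-PURPL#2. GPC1, a heparan sulphate proteoglycan that binds SLITs, rose in PURPL#1-OE by 0.99 ± 0.09 (adjusted p = 1.06e-10) and in PURPL#2-OE by 0.67 ± 0.09 (adjusted p = 4.05e-07), and its changes with the guides were -0.03 ± 0.07 (adjusted p = 0.823) with sgRNA-PURPL#1 and 0.02 ± 0.07 (adjusted p = 0.844) with sgRNA-PURPL#2. FLRT2, a ligand of UNC5 receptors, rose with sgRNA-PURPL#1 by 0.35 ± 0.07 (adjusted p = 0.000129) and with sgRNA-PURPL#2 by 0.34 ± 0.07 (adjusted p = 0.000175), and its changes were -0.04 ± 0.05 (adjusted p = 0.55) in PURPL#1-OE and -0.10 ± 0.05 (adjusted p = 0.15) in PURPL#2-OE. RGMB, a ligand of neogenin, fell in all 4, with -0.61 ± 0.06 (adjusted p = 1.87e-09) and -0.26 ± 0.06 (adjusted p = 0.000954) with guides sgRNA-PURPL#1 and sgRNA-PURPL#2, and -0.93 ± 0.11 (adjusted p = 7.95e-05) and -0.74 ± 0.11 (adjusted p = 0.000399) in PURPL#1-OE and PURPL#2-OE. These 4 genes were singled out after their values were seen.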

How the data were processed

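Poly(A)-selected RNA was sequenced, per the labels' protocols, from random-hexamer cDNA amplified by 18 PCR cycles without molecular identifiers. The authors deposited raw read counts per gene in 2 tables, whose length column equals the gene span. Tools named in the submitters' processing notes are FastQC 0.11.9, cutadapt 3.3, HISAT2 2.1.0, SAMtools 1.11, featureCounts 2.0.1 and DESeq2 1.34.0, with builds hg38 and GRCh38.p13. Genomic DNA is given as the labelled molecule, but the described protocol is for RNA and was taken as right.

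Counts were filtered (filterByExpr, minimum count 10, minimum total 15), scaled by TMM and tested with edgeR 4.0.16 quasi-likelihood tests in R 4.3.3 for each table of 9 libraries (6 residual degrees of freedom) and jointly for 18 (12), with Benjamini-Hochberg adjustment over all tested genes and a threshold of 0.05. CPM use TMM-scaled totals. No 2 libraries of the same group agreed within sampling noise (chi-square per gene at least 2.47). The code was tested on simulated data. Alternatives were RLE size factors, DESeq2 1.42.0, no filter, fits of 6 libraries, a replicate block and leaving out each library. Members named with all values passed in 1 direction in both comparisons of a table, at most 12 a table by mean change, or were among the 6 with the highest difference between tables, and others are named beside counts. Members, lists and alternatives were chosen with earlier results of these data known.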

Additional observations from a re-analysis of the deposited data

Results flagged for a closer look

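The members listed here were flagged because the 2 guides, or the 2 overexpression groups, differed from each other in a direct test (edgeR's quasi-likelihood test, adjusted p at or under 0.05 over all genes). Values are log2 fold changes ± SE.

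Between sgRNA-PURPL#2 and sgRNA-PURPL#1, EPHA4 differed by 0.37 ± 0.07, NTN4 by 0.38 ± 0.06, NRP2 by 0.37 ± 0.12 and SEMA7A by 0.39 ± 0.12, all higher with sgRNA-PURPL#2. SEMA3E differed by -1.07 ± 0.16, SLIT3 by -0.50 ± 0.08, UNC5B by -0.41 ± 0.07, SEMA3D by -0.34 ± 0.07, SEMA6A by -0.30 ± 0.08 and NRP1 by -0.25 ± 0.06, all lower with sgRNA-PURPL#2. For EPHA4 the rise against sgCtrl was higher with sgRNA-PURPL#2, and for NTN4, UNC5B, SLIT3 and SEMA3E the change against sgCtrl was higher in size with sgRNA-PURPL#1. By DESeq2 the differences of NRP2 (adjusted p = 0.169), SEMA6A (0.0565) and SEMA7A (0.107) did not pass. The same 3 differences were lost when single libraries were left out, with adjusted p up to 0.185 for NRP2, 0.0785 for SEMA6A and 0.21 for SEMA7A.

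Between PURPL#2-OE and PURPL#1-OE, EPHA7 differed by 1.91 ± 0.37, PLXNC1 by 0.42 ± 0.07, PLXNA2 by 0.31 ± 0.08, EPHB4 by 0.29 ± 0.09, UNC5B by 0.26 ± 0.08, PLXND1 by 0.24 ± 0.06, ROBO2 by 0.21 ± 0.06, PLXNA1 by 0.20 ± 0.07 and SLIT2 by 0.19 ± 0.05, all higher in PURPL#2-OE. EPHA7 met the low-count filter only through PURPL#2-OE, where it is high, so its difference is a description. SEMA6A differed by -0.74 ± 0.14, NRP2 by -0.71 ± 0.08, NTN4 by -0.49 ± 0.05, SEMA3D by -0.31 ± 0.06 and EPHA4 by -0.17 ± 0.05, all lower in PURPL#2-OE. Calls were lost without single libraries for PLXNA1 (adjusted p = 0.292 without PURPL#1-OE library a), UNC5B (0.161 without that library), EPHA4 (0.118 without PURPL#1-OE library c), EPHB4 and SLIT2 (0.0907 each without PURPL#1-OE library a), ROBO2 (0.0829 without PURPL#2-OE library a), PLXNA2 (0.0601 without that library) and PLXND1 (0.0575 without PURPL#2-OE library b). PURPL lay at 114 to 129 CPM in PURPL#2-OE and at 166 to 178 CPM in PURPL#1-OE, and whether its level went with these differences was not tested.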

How the results depend on the processing

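Of 1764 values of single named members under other settings, 64 no longer passed, 21 newly passed and 0 of those that had passed turned round. The other 1679 were counted as unchanged. A value that had not passed was counted there even if its direction changed. The count of members higher with sgRNA-PURPL#2 than with sgRNA-PURPL#1, 4, was 2 by DESeq2 and between 2 and 4 when each library was left out, at its lowest without replicate 2 or 3 of sgRNA-PURPL#1 or replicate 3 of sgRNA-PURPL#2. The count higher in PURPL#2-OE than in PURPL#1-OE, 9, lay between 4 and 11 when each library was left out, at its lowest without PURPL#2-OE library a. The other counts stayed within 1.5 times their value under other size factors, DESeq2, no low-count filter, fits of 6 libraries and each library left out. Among them, the count higher in PURPL#2-OE than in Ctrl, 19, was lower under every alternative. It was 14 to 16 when each library was left out and 15 to 18 under the other settings. The cause of these shifts was not tested.

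Same-numbered knockdown libraries did not deviate together (correlations of -0.0888 to 0.0386 in 9 pairs), so the numbers were not taken as pairs. With the replicate number as a block, 9 members were higher and 9 lower with sgRNA-PURPL#1 and 6 higher and 10 lower with sgRNA-PURPL#2 than with sgCtrl, and 3 were higher and 6 lower with sgRNA-PURPL#2 than with sgRNA-PURPL#1. No paired analysis was possible for the overexpression table because 5 of its 9 columns carry no replicate number. Members near 1 CPM rest on few reads, and smaller changes were not detectable there.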
